A study of Homo sapiens with 12 samples.

Results

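A set of 76 genes had high transcript levels in all 6 libraries of either MDA-MB-231 cell line and levels at least 8 times lower in every library of the other line. The members were chosen from the normalized counts themselves. A gene was taken when its lowest value over the 6 libraries of a line, vehicle and TGFβ1 together, was at least 50 and at least 8 times the highest value over the 6 libraries of the other line. Of the 18579 genes tested, 70 were high in wt-GR cells (0.377%) and 6 were high in S134A-GR cells (0.0323%). The contrast between the lines chose the genes, so the levels below describe that contrast and carry no test.

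MDA-MB-231 is an established human cell line of triple-negative breast cancer (TNBC) with a mesenchymal phenotype. The S134A-GR cells (clone #1) carried, on both alleles of NR3C1, an alanine codon in place of Ser134 together with a silent change in the guide's PAM, both made by CRISPR, and the wt-GR cells were a clone of the same CRISPR population that had kept the wild-type gene. Each line was therefore a single clone, and a difference due to the receptor cannot be told apart from a difference between 2 clones. All cells were starved for 18 h in IMEM with 1% DCC, then given TGFβ1 (10 ng/mL) or its vehicle, and taken 6 h later, with no GR ligand added. Each of the 4 groups had 3 libraries, and nothing in the sources says that these came from separate cultures, so p-values measure the spread between these libraries only.

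The glucocorticoid receptor (GR) is a steroid receptor that binds DNA at glucocorticoid response elements and tethers to other factors such as AP-1, and Ser134 is a residue that p38 MAPK phosphorylates under stress or TGFβ1. Breast cancer lines of this kind keep few luminal features and little of the secretory programme of glandular epithelium. A gene expressed in a tissue-restricted way often starts outside a CpG island, a stretch dense in the dinucleotide CG, whereas most housekeeping genes start inside one.

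Recovered library totals ranged from 56.4 to 129.8 (in units of 1e6 reads), and 3 reads, taken as the floor of detection, equalled at most 4.89 normalized counts in wt-GR and 3.04 in S134A-GR libraries. The labels give an average depth of 40 in the same units, where the recovered totals averaged 93.5. What 1 recovered read stands for (a sequenced fragment, 1 mate of a pair or 1 alignment) is therefore not known, and the floor is 3 of these units and covers counting error only. All 10 mesenchymal TNBC markers, among them VIM, CD44 and AXL, were above 3 reads in all 12 libraries, while ESR1 and CDH1 did not exceed 12.5 normalized counts in any library. The summed level of the 10 markers was 1087887 to 1258192 normalized counts in wt-GR and 1033133 to 1237795 in S134A-GR libraries. Of the 10, 1 was higher in all wt-GR libraries (CAV1), 1 in all S134A-GR libraries (ANXA1), and 8 overlapped. CAV1 stood at 68291 to 70789 in wt-GR against 42746 to 47765 in S134A-GR libraries, and ANXA1 at 60813 to 71410 against 77867 to 86081.

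"Silent" fitted only a share of the 70 genes high in wt-GR cells. In S134A-GR cells 9 of them had 0 reads in all 6 libraries, and 24 (these 9 included) had at most 3 reads in each of the 6. At the other end, 20 genes stayed above 3 reads in all 6 S134A-GR libraries, and 9 reached at least 50 normalized counts there. As a percentage of the mean in wt-GR cells, the level left in S134A-GR cells had a median of 1.48% over the 70 genes, was under 1% for 30 of them and reached 9.80% for ITGB2. In bulk RNA, fewer cells that express a gene and less RNA per cell cannot be told apart. The lowest wt-GR value had a median of 141 normalized counts over the 70 genes, from 56.7 for TENM4 to 11999 for MCAM. Of the 6 genes high in S134A-GR cells, none was at or under 3 reads in all 6 wt-GR libraries.

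**Figure D1:**
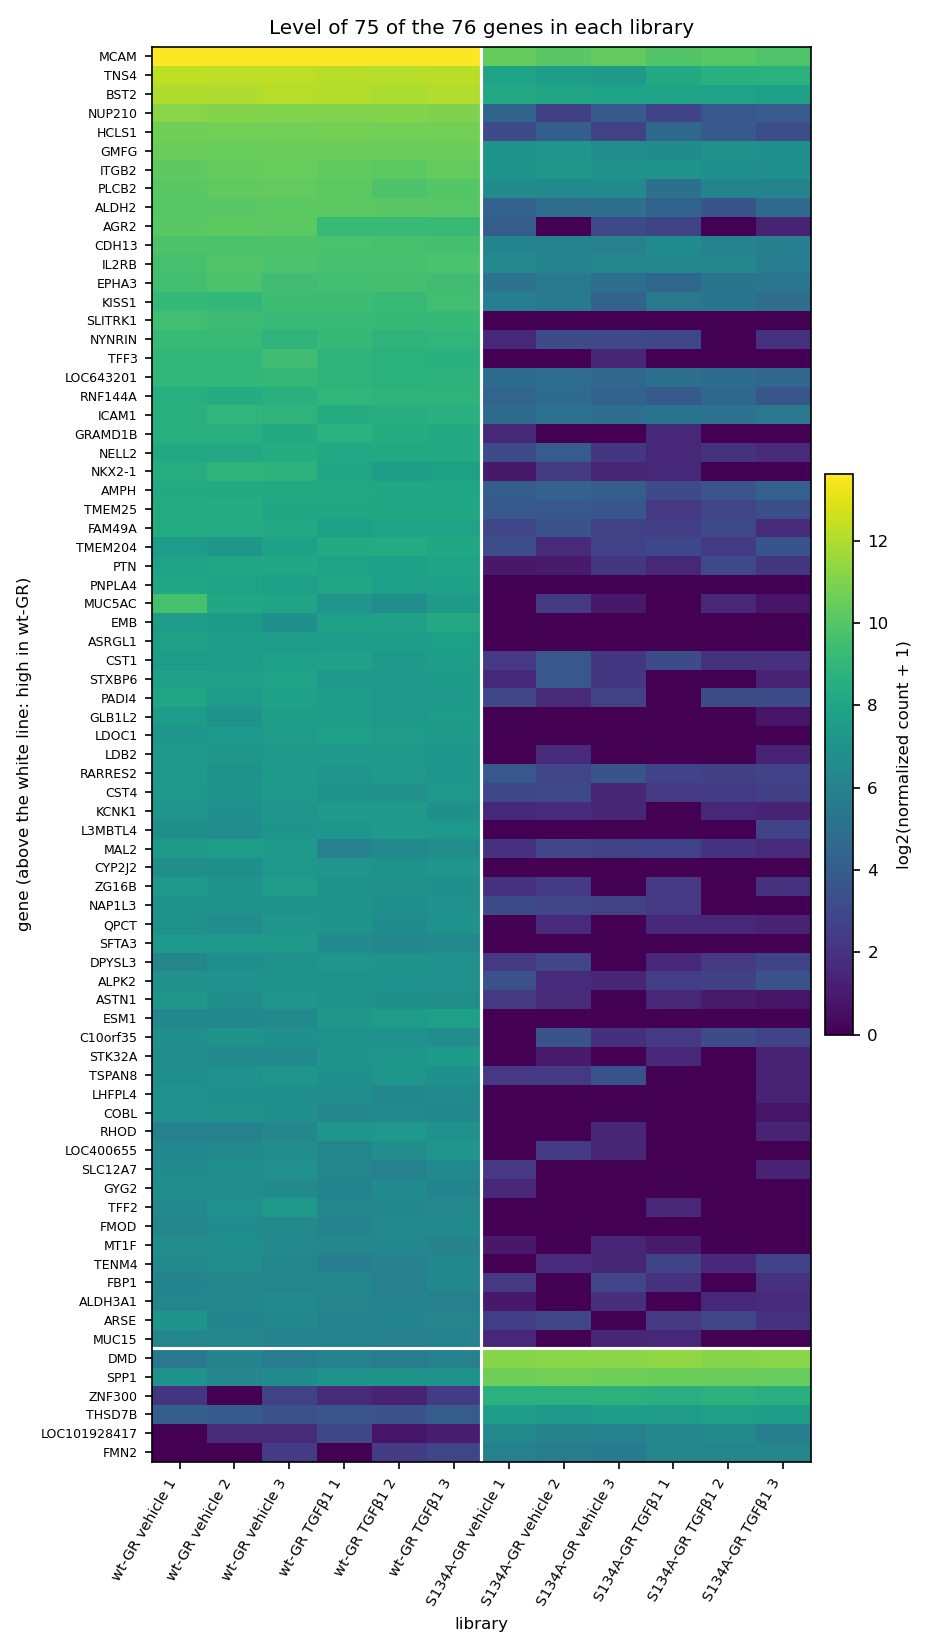
Heat map of log2(normalized count + 1) for 75 of the 76 genes (rows, ordered within each direction by median level in the high line) in the 12 libraries (columns). The 69 genes above the white line are high in all wt-GR libraries and the 6 below it in all S134A-GR libraries, and 9 rows read 0 in every S134A-GR library.

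The sequences that precede 4 of these genes are shown as examples. SLITRK1 had the largest contrast, NUP210 the largest among genes with reads in all 12 libraries, and ZNF300 the largest in the opposite direction. LDOC1 was among the genes at 0 reads in all S134A-GR libraries that have a CpG-dense start, PNPLA4 being another. Each run is the RefSeq window (GRCh38.p14) of 250 bases before and 50 bases after the gene's start, 5′ to 3′ on the gene's own strand, with every CG in capitals. NUP210 is at chr3:13420273-13420572, LDOC1 at chrX:141177080-141177379, SLITRK1 at chr13:83882425-83882724 and ZNF300 at chr5:150904931-150905230, all on the minus strand. The NUP210 window held 42 CG dinucleotides, that of LDOC1 34, that of ZNF300 15 and that of SLITRK1 7.
NUP210: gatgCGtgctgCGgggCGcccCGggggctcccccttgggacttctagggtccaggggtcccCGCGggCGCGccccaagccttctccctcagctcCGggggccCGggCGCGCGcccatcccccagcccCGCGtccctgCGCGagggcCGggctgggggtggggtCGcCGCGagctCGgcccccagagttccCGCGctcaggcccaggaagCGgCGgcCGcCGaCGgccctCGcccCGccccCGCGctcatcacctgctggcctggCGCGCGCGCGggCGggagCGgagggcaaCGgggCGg
LDOC1: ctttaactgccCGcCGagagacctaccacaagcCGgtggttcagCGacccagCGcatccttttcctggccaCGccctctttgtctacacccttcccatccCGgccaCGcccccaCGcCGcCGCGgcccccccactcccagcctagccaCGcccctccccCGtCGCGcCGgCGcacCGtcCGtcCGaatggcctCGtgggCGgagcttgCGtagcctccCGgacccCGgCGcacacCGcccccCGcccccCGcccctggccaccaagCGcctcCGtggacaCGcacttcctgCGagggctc
SLITRK1: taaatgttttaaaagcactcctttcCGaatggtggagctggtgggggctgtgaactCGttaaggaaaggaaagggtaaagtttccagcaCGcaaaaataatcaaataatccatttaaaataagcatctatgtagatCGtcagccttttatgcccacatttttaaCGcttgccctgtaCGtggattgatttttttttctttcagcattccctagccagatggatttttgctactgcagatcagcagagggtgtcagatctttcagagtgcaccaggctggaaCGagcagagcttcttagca
ZNF300: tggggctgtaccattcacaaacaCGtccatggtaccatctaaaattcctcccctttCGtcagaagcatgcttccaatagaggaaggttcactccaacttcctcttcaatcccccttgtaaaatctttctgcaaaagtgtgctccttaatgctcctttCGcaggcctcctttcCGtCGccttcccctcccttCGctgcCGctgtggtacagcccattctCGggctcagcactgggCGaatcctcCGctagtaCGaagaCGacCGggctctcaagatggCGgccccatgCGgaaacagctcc

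Genes of mucosal and secretory epithelium formed the largest group with a shared role, 12 of the 70. Roles were assigned after the values were seen and are a way of ordering the genes, not a test. TFF3 and TFF2 encode trefoil factors, small peptides secreted with mucins. In wt-GR cells TFF3 had 404 to 693 normalized counts with a median of 495, and 5 of the 6 S134A-GR libraries had 0 reads, the sixth standing at 1.78. TFF2 ranged from 77.8 to 159 (median 85.4) in wt-GR cells against 0 to 1.90 in S134A-GR cells. AGR2, a disulfide isomerase of the endoplasmic reticulum needed for mucin folding, ranged from 571 to 1203 (median 869) against 0 to 15.1 (median 3.57). As the rule requires of every member, no library of either line overlapped the other line for these genes.

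MUC5AC, a gel-forming mucin of airway and stomach, ranged from 108 to 813 (median 206) in wt-GR cells against 0 to 4.05 in S134A-GR cells. The spread of MUC5AC in wt-GR cells came largely from vehicle library 1 at 813, against 279 and 247 in the other 2 vehicle libraries. MUC15, a membrane mucin, had the lowest levels of the group, 60.8 to 76.6 against 0 to 1.90. NKX2-1, the homeobox transcription factor of lung and thyroid, ranged from 198 to 464 (median 309) in wt-GR cells against 0 to 4.05 in S134A-GR cells. SFTA3, which overlaps NKX2-1 on chromosome 14, ranged from 80.6 to 167 against 0 reads in all 6 S134A-GR libraries, and reads of the overlapping pair cannot be told apart without strand. The salivary cystatins CST1 and CST4, close paralogs whose reads may be shared, were at least 168 and 119 in wt-GR cells and at most 12.2 and 7.10 in S134A-GR cells. The exocrine lectin ZG16B (lowest wt-GR value 114), the tetraspanin TSPAN8 (111) and the transcytosis protein MAL2 (65.5) completed the group, and none of the 3 exceeded 9.80 in S134A-GR cells.

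Luminal epithelial markers differed between the lines in both directions. Of 15 such markers in the files, TFF3 and AGR2 were members. Of the other 13, 6 were higher in all wt-GR libraries (TFF1, XBP1, KRT19, EPCAM, CLDN4 and SPDEF), 2 were higher in all S134A-GR libraries (FOXA1 and MUC1), and 5 overlapped (ESR1, GATA3, CDH1, CLDN3 and ELF3). The summed level of the 13 was 16454 to 19771 in wt-GR and 9692 to 10171 in S134A-GR libraries, and XBP1 alone stood at 7782 to 10200 against 4860 to 5376. KRT19 stood at 3842 to 4989 against 788 to 923, EPCAM at 918 to 1093 against 318 to 436 and SPDEF at 998 to 1107 against 213 to 326, whereas MUC1 stood at 505 to 847 against 1488 to 1996, FOXA1 at 190 to 241 against 243 to 317 and GATA3 at 688 to 823 against 777 to 1183. The defining markers ESR1 and CDH1 were at or near 0 in both lines. Of the 15, 13 were above 3 reads in all 6 wt-GR libraries and 9 in all 6 S134A-GR libraries. The part of these markers in the result was not tested.

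Genes best known from leukocytes numbered 8, of which 7 are described here, and they were among the most abundant. HCLS1, the haematopoietic cortactin relative, ranged from 1616 to 1770 (median 1709) in wt-GR cells against 5.35 to 22.8 (median 10.9) in S134A-GR cells. ITGB2, the β2 integrin chain, and ICAM1, the ligand of β2 integrins, were both members. ITGB2 ranged from 1190 to 1423 against 110 to 145, and ICAM1 from 340 to 498 (median 407) against 27.3 to 42.2 (median 35.5), so that both kept a level above the floor in S134A-GR cells. IL2RB, the β chain shared by the receptors of interleukin-2 and interleukin-15, ranged from 800 to 973 against 55.8 to 82.9. The Arp2/3 regulator GMFG (1430 to 1543 against 94.2 to 137), the phospholipase PLCB2 (903 to 1301 against 31.4 to 94.3) and the arginine deiminase PADI4 (155 to 267 against 0 to 8.10) were the other 3 of these 7. None of the 8 was within 3 reads in all S134A-GR libraries.

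Haematopoietic markers were examined beside this group. Of 12 such markers in the files, HCLS1 was a member. Without it the summed level was 40694 to 55503 in wt-GR and 25772 to 33233 in S134A-GR libraries, nearly all of it LAPTM5 and LCP1. Of these 11, 3 were higher in all wt-GR libraries (LCP1, CD53 and LAPTM5), 0 were higher in all S134A-GR libraries and 8 overlapped. The defining markers PTPRC and CD53 did not exceed 9.80 in any library, CD53 standing at 2.11 to 4.89 in wt-GR against 0 to 2.03. SPI1 was at 0 in all wt-GR libraries and at 0 to 4.05 in S134A-GR libraries. The part of such cells in the result was not tested. The summed level of 9 neural markers, SLITRK1 among them, was 14458 to 15559 in wt-GR and 20381 to 21961 in S134A-GR libraries. Most of it was TUBB3, at 13262 to 14340 against 19085 to 20603. Of the 8 without SLITRK1, 2 were higher in all S134A-GR libraries (SYT1 and TUBB3), 0 in all wt-GR libraries, and 6 overlapped. The summed level of 9 stromal markers was 3203 to 13453 and 4090 to 10896, most of it COL1A1 and PDGFRB, and all 9 overlapped.

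The 6 adhesion molecules and receptors of the cell surface held both extremes of the set. SLITRK1, a neuronal membrane protein that acts in synapse formation, ranged from 549 to 723 (median 583) in wt-GR cells and had 0 reads in all 6 S134A-GR libraries, so that its lowest wt-GR value was at least 181-fold higher than the floor of 3 reads per library. MCAM (CD146), an adhesion molecule linked to invasion in several tumours, ranged from 11999 to 12650 in wt-GR cells, but 946 to 1376 normalized counts remained in S134A-GR cells, the highest level left by any of the 70. EPHA3, an ephrin receptor, ranged from 691 to 863 (median 744) against 23.8 to 42.6 (median 35.7). CDH13 (T-cadherin, held in the membrane by a lipid anchor) ranged from 777 to 912 (median 853) against 55.8 to 96.1 (median 65.9). EMB, an immunoglobulin-family adhesion protein, ranged from 112 to 294 against 0 reads in all 6, and TENM4, a teneurin, from 56.7 to 100.4 against 0 to 5.72. Of 87 adhesion genes, listed by symbol pattern, at 50 or more in all wt-GR libraries, 4 (ITGB2, CDH13, SLITRK1 and ICAM1) were members, 4.60%, against 0.549% of the 12755 genes of any kind at that level, with no test. The pattern left out MCAM, EMB and TENM4. ICAM1, CDH13 and ITGB2 lay nearest the fold limit of all 70 (ratios of 8.05, 8.09 and 8.21). With reads scaled to the library total these genes were no longer members.

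Other secreted proteins numbered 7. KISS1, the precursor of kisspeptin first described as a metastasis suppressor, ranged from 523 to 731 against 19.6 to 56.6. NELL2, a secreted neuronal glycoprotein, was at least 300.2 in wt-GR and at most 14.2 in S134A-GR cells, and PTN (pleiotrophin, a heparin-binding growth factor) at least 224 against at most 7.09. ESM1 (endocan, an endothelial proteoglycan) and FMOD (fibromodulin, a collagen-binding proteoglycan) had 0 reads in all 6 S134A-GR libraries. RARRES2 (the chemoattractant chemerin) was at least 127 against at most 12.3, and QPCT (glutaminyl cyclase) at least 98.9 against at most 2.03.

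Metabolic enzymes numbered 9, and 6 of them were within 3 reads in every S134A-GR library. ALDH2, the mitochondrial enzyme that clears acetaldehyde, was the most abundant at 1084 to 1170 (median 1120) against 10.1 to 32.1 (median 22.9). ALDH3A1, another aldehyde dehydrogenase, ranged from 61.1 to 88.4 against 0 to 2.67. CYP2J2 (an arachidonic acid epoxygenase, 106 to 155), PNPLA4 (a lipase, 206 to 277) and ASRGL1 (an asparaginase, 176 to 212) had 0 reads in all 6 S134A-GR libraries. GLB1L2, related to β-galactosidase, was at least 126 in wt-GR cells and had 1 read over the 6 S134A-GR libraries. GYG2 (glycogenin, at least 69.3), ARSE (an arylsulfatase, 63.3) and FBP1 (the gluconeogenic fructose bisphosphatase, 59.3) were lower in abundance, and none of them exceeded 6.24 in S134A-GR cells.

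Genes of neuronal function, the cytoskeleton and membrane traffic numbered 8. TNS4, a short tensin of focal adhesions, ranged from 4454 to 5080 (median 4806) against 162 to 416 (median 282). RHOD, an endosomal small GTPase, ranged from 61.9 to 150.1 against 0 to 1.78. The endocytic protein AMPH had a lowest wt-GR value of 268, the SNARE-binding STXBP6 of 153, the neuronal migration protein ASTN1 of 105, the actin nucleator COBL of 78.9, LHFPL4, a partner of GABA-A receptors, of 82.0, and the semaphorin effector DPYSL3 of 73.3. The highest S134A-GR value of these 6 was 18.2, for AMPH.

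Nuclear proteins and retroelement-derived genes numbered 6. NUP210, a membrane glycoprotein of the nuclear pore, ranged from 2024 to 2376 (median 2149) in wt-GR cells against 5.07 to 19.8 (median 12.8) in S134A-GR cells. The lowest wt-GR value of NUP210 was 102-fold its highest S134A-GR value. LDOC1, derived from a retrotransposon gag gene, was at least 138 in wt-GR cells with 0 reads in all 6 S134A-GR libraries, and NYNRIN, also of retroviral origin, at least 462 against at most 8.11. The LIM cofactor LDB2 (at least 143), the MBT-domain protein L3MBTL4 (103) and the histone chaperone relative NAP1L3 (111) did not exceed 7.54 in S134A-GR cells.

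The other 14 genes high in wt-GR cells shared no role. BST2 (tetherin, an interferon-inducible protein that holds budding virus at the membrane) ranged from 3962 to 4626 (median 4185) against 211 to 303 (median 242). It was the 1 member among 50 interferon and antigen presentation genes at 50 or more in all wt-GR libraries (2.0%, against 0.549% of all genes at that level). GRAMD1B, a sterol transporter of the endoplasmic reticulum, ranged from 318 to 421 (median 357) against 0 to 1.90. KCNK1, a 2-pore potassium channel, ranged from 113 to 164 against 0 to 2.03, and SLC12A7, a potassium-chloride cotransporter, from 63.0 to 118 against 0 to 3.77. The pseudogene LOC643201 (411 to 544 against 22.3 to 31.4) may share reads with its parent gene, and the non-coding LOC400655 ranged from 76.7 to 140 against 0 to 4.05. The metallothionein MT1F (at least 68.2 against at most 1.78), one of a family of near-identical genes whose reads may be shared, the ubiquitin ligase RNF144A (340 against 26.4), the Rac1-binding FAM49A (216 against 10.1), TMEM25 (276 against 13.2), TMEM204 (150.1 against 10.7), C10orf35 (103 against 10.1) and the kinases STK32A (86.7 against 1.90) and ALPK2 (116 against 9.43) made up the rest.

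Exon length was taken over all GENCODE transcripts of a gene together. It can exceed the length of the transcript expressed, so the order of genes on this scale is approximate. Per kilobase of exon, the median wt-GR level was highest for BST2 (3801), then MCAM (1684), GMFG (1087), TNS4 (986), KISS1 (884) and TFF3 (536). It was lowest for TENM4 at 4.98, and 2 genes, SFTA3 and LOC643201, had no exon length. Gene families were listed by symbol pattern, so a list can miss or misplace a gene. Among genes at 50 or more in all wt-GR libraries, the list of secreted ligands held 3 members of 92 (3.26%, TFF2, TFF3 and AGR2). That list took in AGR2, an enzyme of the endoplasmic reticulum, and left out PTN and KISS1. Homeobox genes held 1 of 45 (2.22%, NKX2-1), metabolic enzymes 3 of 145 (2.07%) and cytoskeletal genes 1 of 89 (1.12%). Cell surface receptors held 2 of 243 (0.823%), channels and transporters 2 of 385 (0.519%), small GTPases and their regulators 1 of 205 (0.488%) and long non-coding RNAs 2 of 544 (0.368%), beside the 0.549% of all genes at that level. The list of long non-coding RNAs counted the pseudogene LOC643201. There was no member among 489 zinc finger genes, 104 other lineage transcription factors, 100 matrix genes, 16 imprinted genes or 15 cancer-testis genes so listed, with no test. The matrix list did not hold FMOD, the collagen-binding proteoglycan that is a member, so its 0 does not cover every matrix gene. Beside a share of 0.549%, the lists of 104 genes or fewer are too short for a count of 0 to say anything.

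The 6 genes high in S134A-GR cells were led by DMD, which encodes dystrophin, the link between actin and the membrane complex of muscle. DMD ranged from 2282 to 2626 (median 2370) in S134A-GR cells against 42.4 to 67.6 (median 57.9) in wt-GR cells. SPP1 (osteopontin, a secreted integrin ligand of bone matrix) ranged from 1383 to 1693 (median 1552) against 78.2 to 133 (median 121). ZNF300, a KRAB zinc finger protein, ranged from 386 to 438 (median 420) against 0 to 5.26 (median 2.74). It was 1 of 501 zinc finger genes at 50 or more in all S134A-GR libraries (0.20%). Members made up 0.0468% of the 12819 genes of any kind at that level, with no test. THSD7B, a membrane protein with thrombospondin repeats, ranged from 161 to 212 against 9.48 to 16.3. FMN2, a formin that nucleates actin, ranged from 50.8 to 78.7 against 0 to 6.11. The uncharacterized LOC101928417 ranged from 56.5 to 85.8 against 0 to 6.67, and it lies within the span of CDH13, a gene high in the other line, so that their reads cannot be told apart by position where exons overlap. Of the 6, 3 stayed above 3 reads in every wt-GR library.

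**Figure D2:**
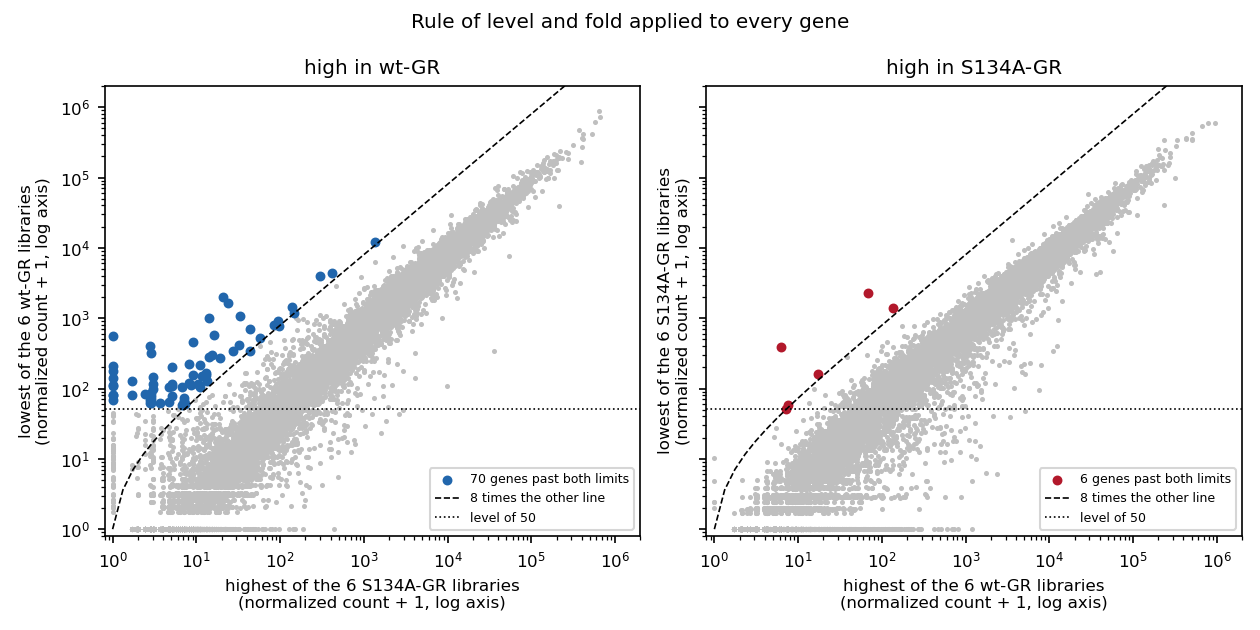
Lowest value in one line against the highest value in the other for every gene with a read (grey), on log axes of normalized count + 1, with the level of 50 (dotted) and the fold of 8 (dashed). The left panel holds the 70 genes high in wt-GR cells (blue) and the right panel the 6 high in S134A-GR cells (red), and the blue points reach down to 0 on the x axis while no red point does.

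Just inside the fold limit were ICAM1 (8.05), CDH13 (8.09) and ITGB2 (8.21), and just outside it were the sodium channel SCN8A (7.96), MYO5C (7.13) and ASS1 (6.40). Just inside the level limit were TENM4 (56.7), FBP1 (59.3) and MUC15 (60.8), and just outside it POF1B (49.8), BEX2 (47.6) and CTLA4 (43.2), the last with 0 reads in all S134A-GR libraries. In the opposite direction the ratios just inside were 8.31 for FMN2, 8.48 for LOC101928417 and 9.89 for THSD7B, and those just outside were 7.41 for LYPLAL1-AS1, 6.75 for FAM19A2 and 4.96 for MAFIP. No gene past the fold lay between FMN2 at 50.8 and LINC01535 at 9.12.

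Whether TGFβ1 moved these genes in the line that expressed them is a contrast the rule did not use. Of the 70 genes high in wt-GR cells, 2 passed an FDR under 0.05 in those cells (2.86%), where 21% of all genes tested and 28.1% of genes at 50 or more in all wt-GR libraries did. ESM1 rose and MAL2 fell, and the other 68 did not pass. Their median log2 fold change was −0.08, against −0.0046 over all genes tested. Of the 6 genes high in S134A-GR cells 0 passed in those cells, where 18.7% of all genes did, and none had an unadjusted limma p under 0.05. DESeq2 and edgeR also called 0 of the 6, where they called 21.8% and 18.6% of all genes. For 2 of the 6 the vehicle and TGFβ1 libraries did not overlap, where 35.6% of all genes did not.

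ESM1 stood at 79.8, 81.4 and 89.5 normalized counts in the vehicle libraries of wt-GR cells and at 146, 182 and 206 in the TGFβ1 libraries. The groups did not overlap, and the log2 fold change of ESM1 was 1.07 (SE 0.303, adjusted p = 0.0222, limma). ESM1 remained at 0 reads in all S134A-GR libraries with and without TGFβ1. MAL2 stood at 169, 192 and 163 under vehicle and at 65.5, 87.1 and 104 under TGFβ1, again without overlap, and its log2 fold change was −1.05 (SE 0.337, adjusted p = 0.0407, limma). For 1 gene, an exact two-sided permutation test of 3 libraries against 3 has 0.1 as its smallest p.

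Both calls rested on few libraries. The limma adjusted p of ESM1 rose to 0.0764 without wt-GR vehicle library 1, 0.0717 without vehicle library 2, 0.0791 without TGFβ1 library 2 and 0.102 without TGFβ1 library 3, with a log2 fold change of at least 0.95 each time. That of MAL2 rose to 0.0872, 0.128 and 0.0667 without vehicle libraries 1, 2 and 3 and to 0.154, 0.0902 and 0.0531 without TGFβ1 libraries 1, 2 and 3, with log2 fold changes from −1.20 to −0.87. Over all 21 alternatives the adjusted p ranged from 7.07e-05 to 0.102 for ESM1 and from 0.000205 to 0.154 for MAL2.

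The vehicle and TGFβ1 libraries of wt-GR cells did not overlap for 28 of the 70 genes (40.0%), where 33.9% of all genes tested did not. TGFβ1 libraries were the lower for 20 of them and the higher for 8, where each direction held 16.9% of all genes. In the mucosal group 8 of 12 genes had all 3 TGFβ1 libraries below all 3 vehicle libraries and 0 had them above, with a median log2 fold change of −0.47 over the 12. That group was named after its values were seen, so its count is a description. AGR2 stood at 1134, 1203 and 1185 under vehicle and at 571, 586 and 604 under TGFβ1 (log2 fold change −0.999, SE 0.796, adjusted p = 0.439, limma). NKX2-1 stood at 362, 464 and 440.1 against 257, 198 and 215 (−0.92, SE 0.424, adjusted p = 0.154, limma), and the overlapping SFTA3 at 155, 153 and 167 against 93.3, 80.6 and 86.6 (−0.86, SE 0.296, adjusted p = 0.0533, limma). MUC5AC stood at 813, 279 and 247 against 134.4, 108 and 164 (−1.51, SE 0.589, adjusted p = 0.088, limma). Without wt-GR vehicle library 1 the log2 fold change of MUC5AC was −0.97 (adjusted p = 0.324, limma, the highest of its 21 alternatives, which began at 0.00668).

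Higher values with TGFβ1 were seen for RHOD, at 61.9, 62.4 and 79.0 under vehicle and 142, 150.1 and 119 under TGFβ1 (1.01, SE 0.462, adjusted p = 0.149, limma). TMEM204 followed at 187, 150.1 and 219 against 322, 335 and 274 (0.75, SE 0.385, adjusted p = 0.203, limma). None of these 6 genes passed the threshold in the model of all 4 groups.

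**Figure D3:**
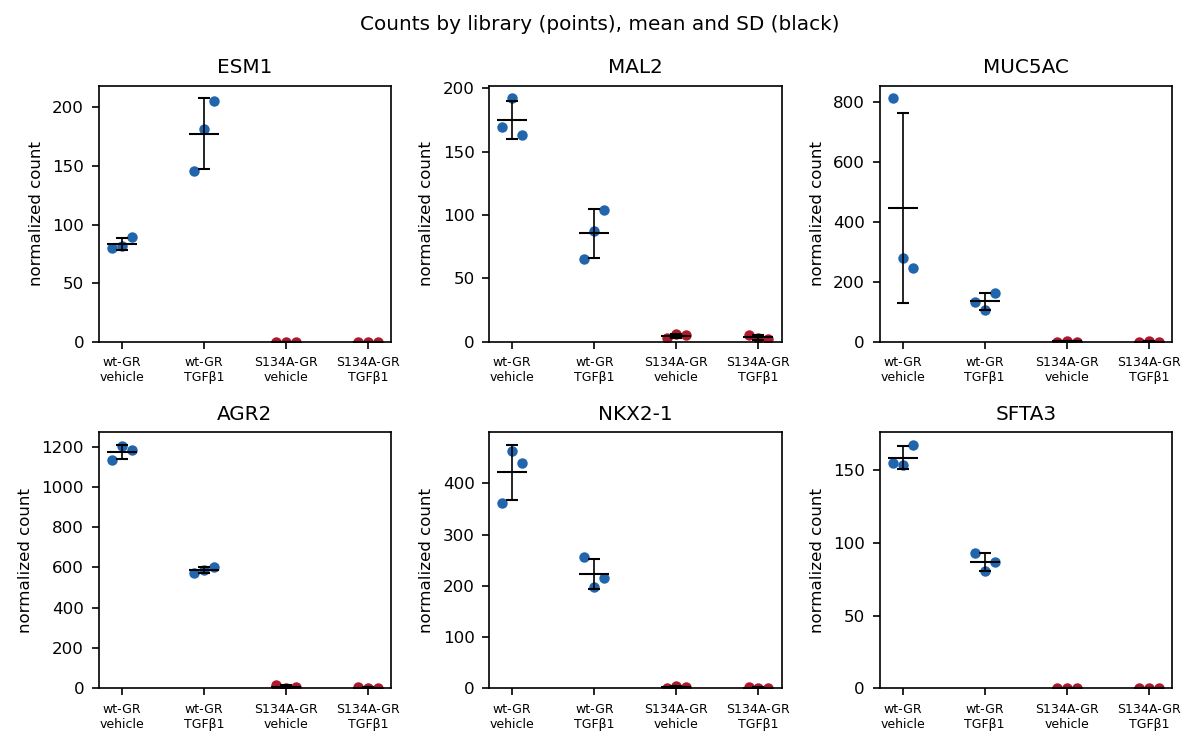
Normalized counts in every library (points) with the group mean and SD (black, n = 3) for ESM1, MAL2, MUC5AC, AGR2, NKX2-1 and SFTA3. In wt-GR cells (blue) the TGFβ1 libraries lie above the vehicle libraries for ESM1 and below them for the other 5, and S134A-GR cells (red) stay at or near 0.

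These calls depended on how the spread was estimated. The model of 4 groups shares 1 spread per gene over both lines, and in the line where the 70 genes were low their log2 values spread more, with a median SD of 0.63 against 0.15 where they were high. Fitting only the wt-GR libraries gave 12 calls among the 70, where 15.8% of all genes were called. DESeq2 gave 12 calls (23% of all genes), edgeR's quasi-likelihood test 8 (20.9%) and limma with a pseudocount of 16 gave 12 (21.5%), against 0 with a pseudocount of 0.5. ESM1, RHOD and TMEM204 (higher) and MAL2, NKX2-1 and SFTA3 (lower) were called in all 4 of these alternatives (wt-GR libraries only, DESeq2, edgeR and a pseudocount of 16), and 15 genes in at least 1 of the 4. AGR2 was called in 3 of the 4 (not by DESeq2), as was MUC5AC (not with wt-GR libraries only). Over its 21 alternatives, the adjusted p ranged from 6.88e-07 to 0.311 for NKX2-1, from 0.000154 to 0.154 for SFTA3, from 0.000239 to 0.308 for RHOD, from 5.47e-05 to 0.568 for AGR2 and from 0.00105 to 0.42 for TMEM204. The direction of each held in every alternative.

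**Figure D4:**
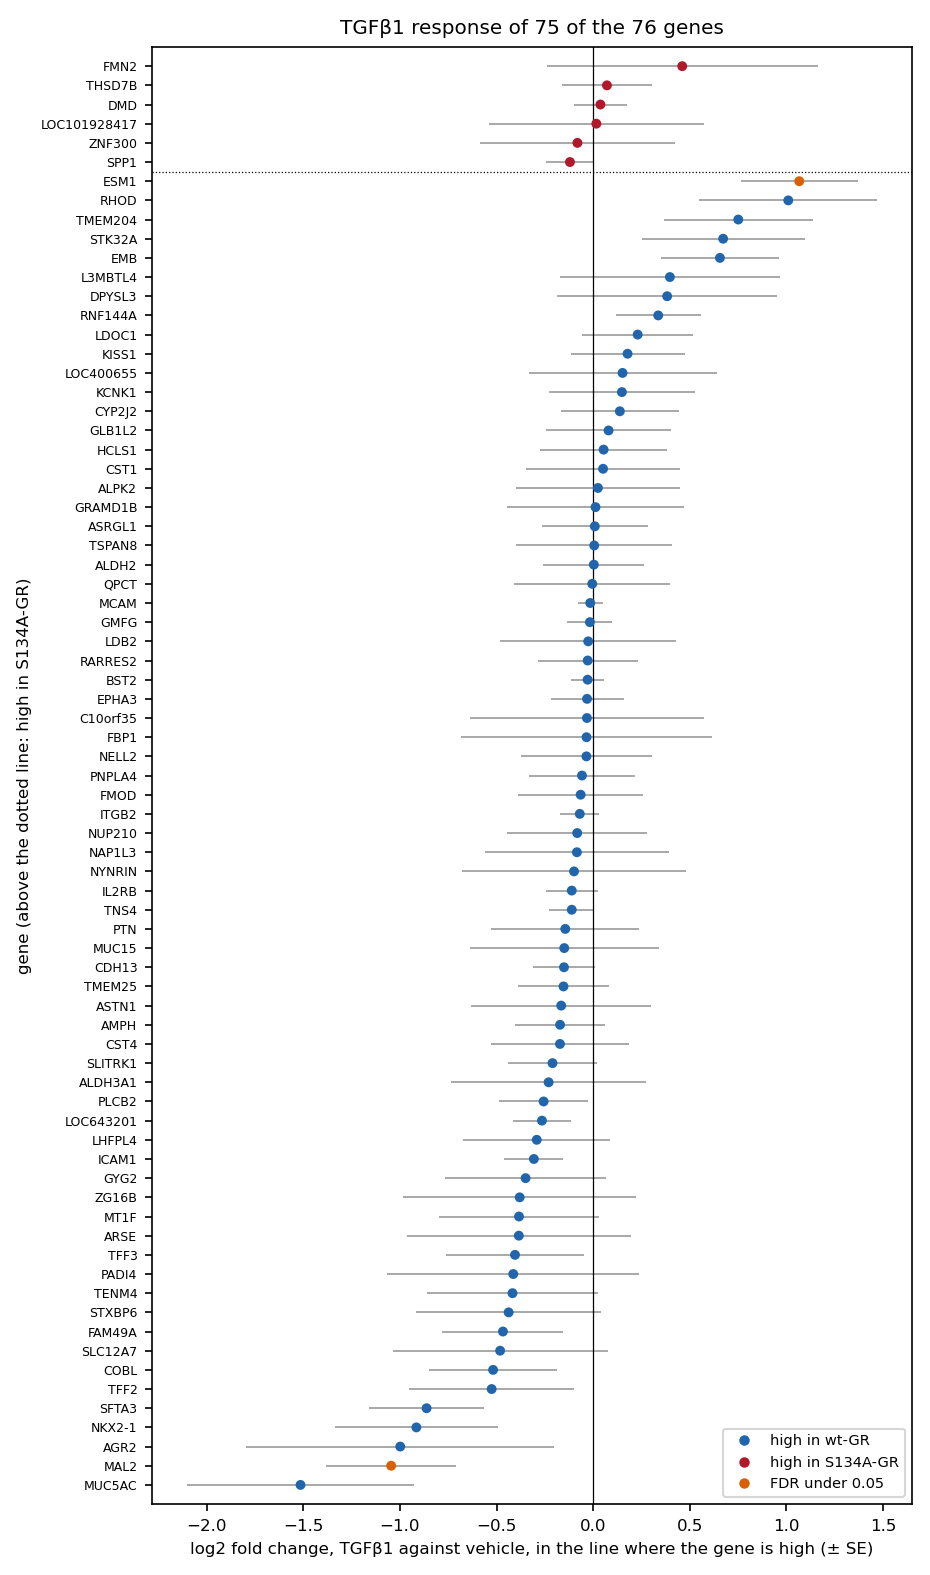
Log2 fold change of TGFβ1 against vehicle (points) with its standard error (bars) for 75 of the 76 genes, each in the line where it is high, from the limma model of 4 groups. ESM1 at 1.07 and MAL2 at −1.05 (orange) passed an FDR under 0.05, and the bars of most other genes cross 0.

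The response of the genes in the line where they were low was a further contrast outside the rule. In S134A-GR cells 9 of the 70 genes passed an FDR under 0.05, where 18.7% of all genes did. TGFβ1 lowered 7 of them (8.69% of all genes fell) and raised 2 (10% of all genes rose). TNS4 rose from 238, 201 and 162 under vehicle to 325, 402 and 416 under TGFβ1 (log2 fold change 0.93, SE 0.116, adjusted p = 5.17e-05, limma), still below all wt-GR libraries, the lowest of which stood at 4454. MCAM fell from 1376, 1136 and 1308 to 990.1, 1081 and 946 (−0.34, SE 0.0641, adjusted p = 0.00185, limma), and PLCB2 from 94.3, 87.2 and 86.4 to 31.4, 70.9 and 68.0 (−0.73, SE 0.228, adjusted p = 0.0383, limma).

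The other 6 did not exceed 14.2 normalized counts in any S134A-GR library, a range where the fitted size depends on the added 1. TSPAN8 went from 3.77, 4.05 and 9.80 to 0, 0 and 1.43 (adjusted p = 0.00118, limma), NAP1L3 from 7.54, 6.08 and 5.35 to 3.80, 0 and 0 (0.00639), STXBP6 from 1.89, 12.2 and 3.56 to 0, 0 and 1.43 (0.0078), NELL2 from 7.54, 14.2 and 3.56 to 1.90, 3.04 and 2.15 (0.013) and TMEM25 from 13.2, 12.2 and 11.6 to 3.80, 6.07 and 8.58 (0.0112). TENM4 went from 0, 2.03 and 1.78 to 5.71, 2.03 and 5.72 (0.0491). Fitting the 2 groups alone left 2 calls, TSPAN8 and TNS4, where 16.2% of all genes were called. In wt-GR cells SPP1, the only call of the 6 genes low there, rose from 121, 78.2 and 95.8 to 133, 130 and 121 (0.40, SE 0.125, adjusted p = 0.0357, limma), although the groups touch at 121. SPP1 was not called in the fit of 2 groups, nor without wt-GR vehicle library 2 or 3, any of the 3 wt-GR TGFβ1 libraries, or S134A-GR vehicle library 1 or 3.

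The response differed between the lines, by the interaction term, for 1 of the 70 genes, where 0.414% of all genes differed. TNS4, at 5080, 4986 and 4863 in wt-GR cells under vehicle and 4620, 4454 and 4750 under TGFβ1, did not pass there (−0.11, SE 0.116, adjusted p = 0.571, limma), and the difference was 1.04 (SE 0.164, adjusted p = 0.0132, limma). Of the 6 genes high in S134A-GR cells 0 differed by limma, edgeR or DESeq2, 1 with an unadjusted limma p under 0.05.

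The genes were spread over the genome. All 76 could be placed on GRCh38 (73 by GENCODE, 3 by RefSeq), and the 70 fell on every autosome but chromosome 6 and on X. Chromosome 11 held 9 of them (12.9%, against 5.60% of all genes tested), chromosome X 5 (7.14% against 3.44%), and chromosomes 1, 5 and 7 held 6 each. For each gene, the 5 nearest genes on either side with a mean of at least 50 in a line were taken as neighbours. The median of the neighbours' log2 difference, S134A-GR minus wt-GR, lay within 0.5 of 0 for 64 of the 70 genes and was at or below −1 for 0 of them, and 46 had no neighbour at −1 or lower. Of 682 neighbours 5.57% were at −1 or lower, against 2.74% of 13400 other genes, and 3.23% against 3.31% were at 1 or higher.

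**Figure D5:**
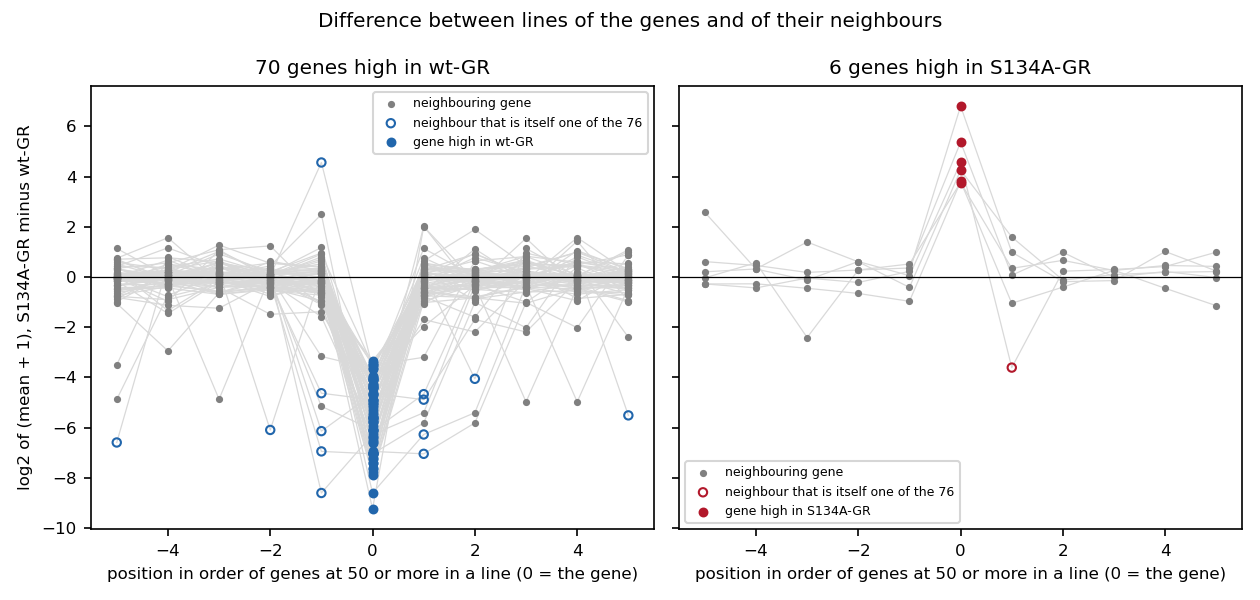
Log2 difference of S134A-GR minus wt-GR (of the mean + 1) for each of the 76 genes (position 0) and for its 5 neighbours on either side in the order of genes at 50 or more in a line. By the rule, the 70 genes high in wt-GR cells (blue, left) lie far below 0 and the 6 high in S134A-GR cells (red, right) far above it. Most neighbours lie around 0.

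Some members were neighbours of each other. Of the 70, 16 lay within 1 Mb of another member, in 8 pairs. TFF3 and TFF2 on chromosome 21 were flanked by other genes low in S134A-GR cells. TMPRSS3, next to TFF2, differed by −5.41 (log2) and PDE9A by −4.98, while SLC37A1 between them differed by −0.33 and ZBTB21, on the side of TFF3, by 0.12. Around NKX2-1 and SFTA3 on chromosome 14, the homeobox gene NKX2-8 differed by −5.82 and PAX9 by −1.01, whereas MBIP and NFKBIA on the other side differed by −0.24 and 0.06. The pairs CST4 and CST1 (chromosome 20), STK32A and DPYSL3 (5), GYG2 and ARSE (X), FMOD and KISS1 (1), TMEM25 and MCAM (11) and NYNRIN and STXBP6 (14) made up the rest. LDOC1, at 0 reads in S134A-GR cells, lies beside SPANXB1, which was higher there by 2.49. SLITRK1 on chromosome 13 lies beside SLITRK6, higher there by 2.01, and its neighbours had a median of −0.30.

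Neighbour medians were also read by region. The rule required a large difference of each member and none of its neighbours, so their sizes cannot be weighed against each other. The 5 members from TENM4 to the end of chromosome 11 (TENM4, TMEM25, MCAM, GRAMD1B and GLB1L2), singled out after their values were seen, had neighbour medians of −0.47, −0.58, −0.49, −0.55 and −0.50, while ASRGL1 and RHOD, nearer the centromere on the same arm, had −0.33 and −0.22. The 3 genes high in wt-GR cells on chromosome 2, FAM49A, QPCT and RNF144A, had neighbour medians of −0.57, −0.54 and −0.48. The part of such regions in these members' differences was not tested.

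Windows of the same size, 250 bases before and 50 after the start, cut from hg38 at the GENCODE start could be read for 68 of the 70 genes. A window was called CpG-rich at a GC content of at least 50% and a CG count of at least 0.6 of that predicted from its C and G content. By this measure 38 of the 68 (55.9%) were CpG-rich, against 84.4% of 12277 other genes at 50 or more in all 12 libraries and 70.2% of all genes tested. Of the 24 genes with at most 3 reads in each S134A-GR library, 23 had a window and 14 were CpG-rich. The observed over predicted CG ratio was 0.85 for NUP210, 0.97 for LDOC1, 0.73 for ZNF300 and 0.52 for SLITRK1.

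Motifs were searched on both strands of these windows. TATAAA was present in 9 of the 68 (13.2%), against 4.96% of the other genes at 50 or more in all libraries and 7.63% of all genes tested. The full glucocorticoid response element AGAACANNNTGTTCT was in 0 windows of any gene tested, and the single arm of it, AGAACA, was in 3 of the 68 (4.41%) against 7.84%. The AP-1 motif TGANTCA was in 3 (4.41%) against 4.18%. These matches are descriptions of the letters in a short window.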

How the data were processed

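RNA-seq was done on wt-GR and S134A-GR clones of MDA-MB-231 (TruSeq libraries, HiSeq2500, paired ends). The authors used Trimmomatic for trimming, HISAT2 with hg38, featureCounts and size factors of DESeq2 1.22.2. The signal the authors deposited is thus a normalized count, 1 per gene symbol (19907) and library. The annotation, the strand setting and whether a pair counted as 1 read are not given in the sources used here.

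Every value (100%, tolerance 0.001) was a whole multiple of its library's step, which gave back the reads. Genes with at least 10 reads over the 12 libraries were tested (18579). Log2 of the value plus 1 was fitted with limma 3.58.1 (trend, empirical Bayes, 4 group means, Benjamini-Hochberg adjustment, FDR under 0.05), on which scale fold changes of low genes are understated. edgeR 4.0.16 and DESeq2 1.42.0 ran on the recovered reads as alternatives. The fit was tested on simulated data with the same level in both lines, so that test does not cover genes low in 1 line. No replicate pair agreed within sampling noise (9.06 to 46.2 chi-square units per degree of freedom).

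The members, gene lists and tests were chosen with earlier results of these data known. Of the 76 members, 75 are named, and 1 is not reported here by name, although the counts and medians include it. Values in every library, or the lowest, median and highest over the 6 of a line, were planned for the 10 largest ratios and 6 highest levels in each direction, for members called for TGFβ1, for up to 4 members of each gene family and for the 3 genes on either side of each limit. Values of other members, the roles and the neighbours singled out were added after the values were seen. Positions came from GENCODE v44 on GRCh38 with RefSeq where GENCODE lacked a symbol. Alternatives for the limits, scaling, pseudocount, filter, test, groups, replicate block and each library left out were planned. They were also applied, after seeing the data, to the calls where members were low and to the differences in response.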

Additional observations from a re-analysis of the deposited data

Results flagged for a closer look

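The TGFβ1 response of TNS4, a tensin of focal adhesions, differed between the lines by 1.04 on the log2 scale (S134A-GR minus wt-GR, SE 0.164, adjusted p = 0.0132 by limma's interaction term), with all 3 TGFβ1 libraries above all 3 vehicle libraries in S134A-GR cells and below them in wt-GR cells. Over the 20 alternatives that give this term the difference ranged from 0.90 to 1.18, and the adjusted p was above 0.05 without wt-GR vehicle library 2 (0.0554), wt-GR TGFβ1 library 1 (0.0587) or wt-GR TGFβ1 library 2 (0.0505).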

How the results depend on the processing

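The number of genes high in wt-GR cells was 91 at a level of 25, 50 at a level of 100, 94 at a fold of 4 and 44 at a fold of 16, against 70. The number high in S134A-GR cells was 13 at a fold of 4 and 2 at a fold of 16, against 6. With reads scaled to the library total they were 66 and 8, with MCAM, ITGB2, CDH13 and ICAM1 leaving and LYPLAL1-AS1 and LINC00665 joining, and with TMM scaling 69 and 6. Leaving out a library gave 70 to 73 and 6 to 7, and all main members were kept each time.

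For the TGFβ1 response in wt-GR cells, the model of 4 groups called 2 of the 70 genes and 3910 of all 18579 genes. The count was 0 with a pseudocount of 0.5 (3887 of all genes) and 12 with a pseudocount of 16 (4000). It was 8 with edgeR under either TMM (3892) or RLE (3846), 12 with DESeq2 (4276) and 12 with only the 2 groups compared (2944). Leaving out a library gave 0 to 3, where 2800 to 4377 of all genes were called. The count was 0 without wt-GR vehicle library 1 or 2 or TGFβ1 library 2 or 3, where 2800 to 3157 of all genes were called. In S134A-GR cells the count of the same genes was 9, where 3475 of all genes were called. It was 4 with a pseudocount of 16 (3520 of all genes), 2 with only the 2 groups (3009) and 7 to 13 with a library left out (2497 to 3830). The count of differences in response, 1, was 3 with a pseudocount of 16, 2 with DESeq2 and 0 to 2 with a library left out. For this term the shares over all genes were not taken under the alternatives, so changes in its count cannot be weighed. For the 6 genes high in S134A-GR cells the count of calls was 0 in their own line under every alternative and 0 for the difference. In wt-GR cells their count was 1, or 0 with only the 2 groups, and 0 to 1 with a library left out. No direction reversed among the members with a fold change given for each alternative.

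The replicate numbers do not mark a stated batch, and over 12501 genes the deviations of the 18 same-numbered pairs of libraries correlated at −0.207 to 0.264 (mean −0.017, against 0.00871 for other pairs), so the numbers were not taken to pair the samples. With a replicate block, 1 of the 70 genes was called in wt-GR cells (ESM1) in place of 2.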

Other observations

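Looser limits brought in genes of similar kinds, named here after their values were seen and with no test. At a fold of 4, 24 more genes were high in wt-GR cells. They included the cadherins CDH11 (6248 to 6870 normalized counts in wt-GR against 959 to 1366 in S134A-GR libraries) and CDH5 (165 to 234 against 13.2 to 37.1), the adhesion receptor ADGRF5 (2859 to 5802 against 226 to 469), the inflammatory caspase CASP1 (287 to 497 against 26.6 to 68.8) and the keratin KRT79 (970 to 1313 against 118 to 186). At a level of 25, 21 more were high in wt-GR cells, among them the immune checkpoint receptor CTLA4 (43.2 to 71.7), the homeobox gene NKX2-8 (42.4 to 61.1) and the prostaglandin transporter SLCO2A1 (33.3 to 88.8), each with 0 reads in all 6 S134A-GR libraries.

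In the opposite direction a fold of 4 added 7 genes. The aldo-keto reductase AKR1C1 ranged from 765 to 865 in S134A-GR against 149 to 173 in wt-GR libraries, the laminin-binding integrin chain ITGA7 from 464 to 792 against 86.7 to 115, and the orphan receptor GPR78 from 298 to 573 against 29.3 to 66.3.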
